A study of Mus musculus with 6 samples.

Results

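The T cell receptor gene segments were the 171 rows of the deposited count table whose gene name begins with Trav, Traj, Trac, Trbv, Trbj, Trbc, Trbd, Trgv, Trgc, Trgj, Trdv, Trdc or Trdj, out of 13605 genes used. They were measured by mRNA sequencing of regulatory T cells (Tregs, CD4 T cells that express Foxp3 and hold back immune responses) taken from mouse liver. There were 6 libraries in 2 groups, 3 labelled Altre WT (wild type) and 3 labelled Altre knockout, from mice of 14 months with no treatment, Altre being a long non-coding RNA made in Tregs. The comparison asks whether liver Tregs of ageing mice differ in receptor gene use when Altre is absent. The labels describe neither the deleted allele nor the cells in which it is deleted, and leave unsaid whether each library is from a different animal, so the p-values speak only to how these samples differ, in part perhaps technically.

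A T cell receptor is a pair of chains, alpha with beta on most T cells, Tregs included, and gamma with delta on a separate lineage. Each chain is assembled in the thymus by cutting and joining DNA, so that 1 variable (V) segment, in beta and delta chains also a diversity (D) segment, and 1 joining (J) segment come to lie together, and the transcript is then spliced to a constant (C) region. The V, D and J segments a cell has joined are inherited by its daughters, so segment usage in a bulk library reflects the clones in it and how much receptor RNA each made. The alpha (TRA) and delta (TRD) segments share 1 stretch of chromosome 14, with the delta genes lying between the alpha V and J segments. The beta (TRB) segments lie on chromosome 6 and the gamma (TRG) segments on chromosome 13.

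By class the members were 71 alpha V segments (TRAV), 51 alpha J segments (TRAJ), the alpha constant region Trac, 25 beta V segments (TRBV), 2 beta D segments (TRBD), 14 beta J segments (TRBJ), both beta constant regions Trbc1 and Trbc2, 3 delta V segments (TRDV), the delta constant region Trdc and 1 gamma V segment, Trgv2. All 171 had an entry in the GENCODE M21 annotation of mouse build GRCm38, where 15 of them, 6 TRAJ, 5 TRAV, 3 TRBV and 1 TRBJ, are pseudogenes. The annotation holds 128 TRAV, 60 TRAJ and 35 TRBV segments, of which 57, 9 and 10 were not analysed here. The gamma constant genes carry names beginning Tcrg, and 3 such genes, outside the rule by name, are given beside the gamma and delta results.

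The shortest members were the beta D segments, which code for the middle of the antigen-contacting loop. They are shown with leading J segments because these short sequences are what a read must match to be counted on their rows. Sequences are from GENCODE M21 on GRCm38, plus strand, 5′ to 3′, and capitals mark the motif TTNGGNNNNGG (N being any base). Its letters allow the phenylalanine, glycine, any residue, glycine stretch that is typical of J segments. The search fixed no reading frame, so a match does not by itself show that stretch. Trbj2-6 is an annotated pseudogene, and Traj33 is the J segment of the invariant receptor of MAIT cells, which respond to vitamin B metabolites. Neither holds the motif.
Trbd1 (chr6:41533201-41533212): gggacagggggc
Trbd2 (chr6:41542163-41542176): gggactgggggggc
Trbj1-5 (chr6:41535084-41535133): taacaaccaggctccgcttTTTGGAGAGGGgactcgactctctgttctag
Trbj1-4 (chr6:41534811-41534861): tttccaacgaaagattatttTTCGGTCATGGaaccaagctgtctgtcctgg
Trbj2-6 (chr6:41543598-41543645): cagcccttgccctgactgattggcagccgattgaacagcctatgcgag
Trbj2-7 (chr6:41543810-41543856): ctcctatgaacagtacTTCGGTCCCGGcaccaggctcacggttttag
Traj27 (chr14:54192303-54192361): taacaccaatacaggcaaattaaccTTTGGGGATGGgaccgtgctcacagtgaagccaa
Traj17 (chr14:54201775-54201837): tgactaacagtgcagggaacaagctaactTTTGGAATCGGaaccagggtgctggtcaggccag
Traj9 (chr14:54209393-54209450): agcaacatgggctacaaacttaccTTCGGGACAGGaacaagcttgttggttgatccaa
Traj18 (chr14:54200777-54200842): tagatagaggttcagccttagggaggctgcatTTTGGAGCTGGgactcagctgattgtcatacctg
Traj33 (chr14:54185358-54185414): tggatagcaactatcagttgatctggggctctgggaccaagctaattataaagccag

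The motif was searched on the coding strand only. It was found in 38 of 45 listed TRAJ genes (84.4%) and 11 of 13 listed TRBJ genes (84.6%), and in 0 of 6 TRAJ pseudogenes and 0 of 1 TRBJ pseudogene. Over all 65 listed J segments 49 (75.4%) held it, and no match says only that these letters are not in the segment.

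Total counts over the listed genes ranged from 25240621 to 30776954 per library. Receptor rows held 0.668%, 0.704% and 0.703% of counts in wild-type libraries 1, 2 and 3 and 0.704%, 0.704% and 0.662% in knockout libraries 1, 2 and 3. Of 8 Treg genes all were listed, Foxp3 and Cd4 included, and they summed to 3679 to 4256 CPM (counts scaled to libraries of equal size) in wild type and 3949 to 4533 CPM in knockout. Genes of other cells were present at lower levels, except for the B cell list at 2820 to 3917 in wild type and 2474 to 3423 CPM in knockout, most of it Ighm, the antibody heavy chain gene. Macrophage and Kupffer genes summed to 150 to 175 in wild type and 191 to 266 CPM in knockout, and naive T cell genes to 1045 to 1332 CPM and 1548 to 2062 CPM, without overlap in either list.

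No receptor gene differed between the genotypes by the test across all genes. Of the 161 receptor rows tested 0 passed an adjusted p of 0.05 (edgeR quasi-likelihood test, Benjamini-Hochberg over 12789 genes), where 0.0% of all genes tested passed, and the smallest adjusted p among them was 0.845. At an unadjusted p under 0.05 there were 4 receptor genes, 2.48% of those tested, against 5.82% of all genes. All 4 were lower in knockout, where 3.1% of all genes were lower and 2.72% higher at that threshold. Their log2 fold changes, knockout over wild type here and throughout, had a median of 0.05, with 87 above 0 and 74 below. Levels in CPM did not overlap between the genotypes for 19 receptor genes, 8 higher and 11 lower in knockout, which is 11.8% against 10.3% of all genes tested (5.6% higher and 4.67% lower). By the authors' deposited table none (0 of 171) passed an adjusted p of 0.05, where 1.81% of all rows did, and the smallest adjusted p there was 0.112, for Trbv12-2. DESeq2 with genotype alone likewise called 0 receptor genes, where it called 0.339% of all genes, with 8 receptor genes at an unadjusted p under 0.05. For Trbv12-2 its adjusted p was 0.629, and 0.115 when libraries of the same number were treated as a block.

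By class the directions were mixed except among TRBJ segments. Of 69 TRAV segments tested 37 were above 0 and 32 below, with a median log2 fold change of 0.08. For the 46 TRAJ segments the counts were 20 and 26 with a median of -0.11, and for the 24 TRBV segments 14 and 10 with a median of 0.04. The 14 TRBJ segments leaned one way, 12 above 0 and 2 below, with a median of 0.09. The 10 rows that did not pass the filter on low counts were Trav20, Trav23, Traj1, Traj25, Traj40, Traj46, Traj59, Trbv8, Trdv4 and Trgv2.

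The constant regions carried most of the receptor counts. Trac (chr14:54220521-54224206), the constant region of every alpha chain, had 57617, 47055 and 56153 counts in wild type and 54833, 49901 and 54555 in knockout, and the groups overlapped. It averaged 1975 ± 106 in wild type and 1970 ± 203 CPM in knockout (SD, n = 3 libraries each, as for every mean ± SD here), with a log2 fold change of -0.0034 ± 0.10 (SE). In bulk libraries fewer cells of a type and less RNA per cell cannot be told apart, which holds for every level here.

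Summed over their rows, the alpha and beta loci overlapped between genotypes. The alpha rows summed to 2699, 2590 and 2788 in wild type and 2920, 2685 and 2407 CPM in knockout. The beta rows summed to 3803, 4438 and 4343 in wild type and 4126, 4468 and 4141 CPM in knockout. The difference had p = 0.9 for alpha and p = 0.8 for beta by exact two-sided permutation tests of the 6 libraries. An exact permutation test of 3 against 3 cannot go below p = 0.1, so no single measure tested this way can pass 0.05. The ratio of alpha to beta counts was 0.710, 0.584 and 0.642 in wild type and 0.708, 0.601 and 0.581 in knockout. This ratio varied as much within a genotype as between them. Within the alpha locus 71.9% to 74.4% of counts lay on Trac and 21.2% to 24.2% on V segments, and within the beta locus 56.1% to 58.7% lay on the constant regions and 37.5% to 40.3% on V segments. These shares are of counts and are not corrected for length.

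Genes for the proteins that carry the receptor to the cell surface also overlapped. The CD3 chains Cd3d, Cd3e and Cd3g and the zeta chain Cd247 summed to 5729 to 7886 in wild type and 5927 to 6477 CPM in knockout. Of these 4 genes 0 were called, 2 were above 0 and 2 below, with a median log2 fold change of -0.05. Of a list of 11 genes of receptor assembly, 7 could be tested, 0 were called, 5 were above 0 and 2 below, with a median of 0.14. Rag1, Rag2 and Ptcra were not analysed here, and Dntt, at 0.0396 to 1.12 CPM, was not tested. The tested genes included Polm, a polymerase that fills in the joined ends, at 18.7 ± 1.91 in wild type and 23.9 ± 1.59 CPM in knockout. Polm did not overlap between the genotypes, while the other tested genes of this list did. Over all genes tested the median was 0.0039.

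Trbc1 took a smaller share of the beta constant counts, and Trbc2 a larger one, in every knockout library. The 2 regions are alternative endings of the beta chain, each with its own D and J cluster upstream, so joining to the second cluster commits a chain to Trbc2. Trbc1 had 27010, 26327 and 28841 counts in wild type and 20922, 23687 and 28087 in knockout, and Trbc2 had 37695, 39322 and 39446 counts and 37713, 40623 and 46841. Trbc1 thus took 41.7%, 40.1% and 42.2% of beta constant counts in wild type and 35.7%, 36.8% and 37.5% in knockout. All knockout libraries were lower than all wild-type ones, 36.7 ± 0.913% against 41.4 ± 1.12%, a difference of -4.69 percentage points with p = 0.1 (exact two-sided permutation test, the smallest p possible). Divided by transcript length the means were 35.2% and 39.8%. As single genes neither was called, with a log2 fold change of -0.18 ± 0.10 (SE) for Trbc1 and 0.10 ± 0.10 for Trbc2 (0.030 without wild-type library 1 and 0.048 without knockout library 2), and for Trbc1 the adjusted p was 0.907 (edgeR quasi-likelihood test, Benjamini-Hochberg). The difference kept its direction without each library in turn, between -5.32 and -4.20 points.

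The first exons of Trbc1 and Trbc2 are near-identical, with 1 differing base in 375, shown here in capitals within bases 251 to 330 of each transcript. Reads that do not cover this base or the later exons match both genes, and how the authors' counting assigned them is not given in the sources used here. The division of counts between the 2 genes is uncertain for that reason.
Trbc1: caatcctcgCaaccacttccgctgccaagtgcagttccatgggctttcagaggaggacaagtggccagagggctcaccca
Trbc2: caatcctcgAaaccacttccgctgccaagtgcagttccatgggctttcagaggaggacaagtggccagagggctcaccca

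The J segments of the 2 beta clusters overlapped between genotypes where the constant regions did not. Segments of the first cluster, Trbj1-1 to Trbj1-7, took 61.7%, 58.7% and 58.4% of TRBJ counts in wild type and 60.2%, 59.5% and 60.8% in knockout. These values overlapped, with means of 59.6 ± 1.84% and 60.2 ± 0.625% and p = 0.7 (exact permutation test). Trbd1, the D segment of the first cluster, took 47.9%, 42.3% and 52.1% of TRBD counts in wild type and 44.0%, 42.5% and 43.8% in knockout, also with overlap. Both D rows together took a smaller share of beta counts in knockout, 0.967 ± 0.0298% against 1.09 ± 0.00789%, without overlap between the genotypes (exact permutation p = 0.1). In CPM the D rows overlapped, at 41.4, 48.8 and 47.2 in wild type and 41.1, 43.2 and 38.8 in knockout (exact permutation p = 0.2). The TRBJ rows together were at 104, 106 and 109 in wild type and 110, 125 and 110 CPM in knockout, also without overlap, at 106 ± 2.45 and 115 ± 8.64 CPM (exact permutation p = 0.1). The difference of 8.81 CPM was 3.83 CPM without knockout library 2. As a share of beta counts the TRBJ rows overlapped, at 2.39% to 2.74% in wild type and 2.66% to 2.80% in knockout.

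**Figure D1:**
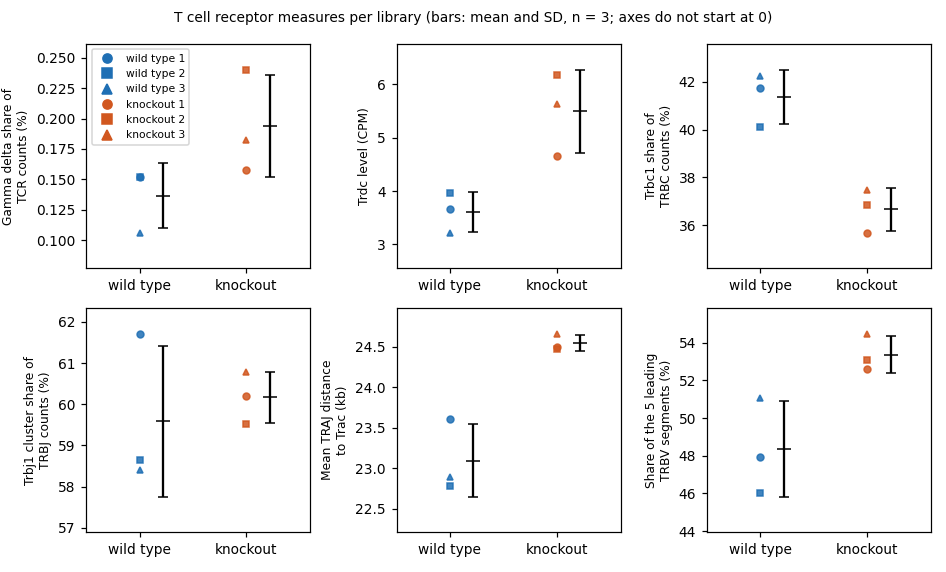
Receptor measures in each of the 6 libraries (points, by library number) with the mean and SD of each genotype (bars, n = 3), as shares in percent, CPM or kilobases on axes that do not start at 0. The genotypes separated in every panel except the share of the first TRBJ cluster, where wild-type library 1 at 61.7% was the highest and wild-type library 3 at 58.4% the lowest. The panels are a selection: of all 74 summary measures compared, 17 (23.0%) did not overlap between the genotypes.

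The gamma and delta rows were a minor part of the receptor counts in every library. Together they took 0.152%, 0.152% and 0.106% of receptor counts in wild type and 0.158%, 0.240% and 0.183% in knockout. The knockout libraries were the higher ones, at 0.194 ± 0.0418% against 0.137 ± 0.0265%, with p = 0.1 (exact two-sided permutation test, the smallest p possible). The gap rested on a narrow margin: the exact binomial 95% interval of knockout library 1 was 0.140% to 0.178% and that of wild-type library 1 was 0.135% to 0.171%. These intervals cover counting error only. The difference in means of 0.0569 percentage points was 0.0338 without knockout library 2. With the 3 Tcrg genes added, the shares overlapped, at 0.146% to 0.219% in wild type and 0.198% to 0.333% in knockout, with p = 0.2 (exact permutation test).

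Trdc (chr14:54142851-54148868), the constant region of every delta chain, had 106, 100 and 87 counts in wild type and 118, 155 and 175 in knockout. Every knockout library was above every wild-type library, at 5.49 ± 0.774 CPM against 3.61 ± 0.376 CPM. The log2 fold change was 0.60 ± 0.35 (SE) with an adjusted p of 0.908 (edgeR quasi-likelihood test, Benjamini-Hochberg). Among delta V segments, Trdv1 had 132, 86 and 63 counts in wild type and 137, 225 and 115 in knockout, with overlap and a log2 fold change of 0.81 ± 0.44, which was 0.39 without knockout library 2. Trdv2-2 had 40, 53 and 40 counts and 24, 47 and 67, a log2 fold change of 0.0090 ± 0.62. Trdv4, the 1 delta V segment on the wild-type side, had 8, 18 and 11 counts in wild type and 0 in each knockout library. Taking 3 counts over the knockout group as the limit that a count of 0 allows, and the wild-type counts as exact, the limit was a 12.4-fold lower level. That limit covers counting error in knockout only, and neither that in wild type nor the spread between libraries. The deposited mean of Trdv4, 6.24, was just above the smallest deposited mean, 5.96. It was thus listed only through its wild-type counts, which favours such a pattern. The authors' adjusted p for it was 0.330 (DESeq2).

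Gamma chain counts were too few to rank the genotypes. Trgv2 had 1, 13 and 4 counts in wild type and 4, 4 and 15 in knockout. The gamma constant gene Tcrg-C1 had 78, 45 and 42 counts in wild type and 35, 87 and 55 in knockout, Tcrg-C2 had 6, 31 and 21 and 14, 46 and 59, and Tcrg-C4 had 42, 5 and 15 and 23, 35 and 38. Each of these overlapped between the genotypes.

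Other genes of gamma delta T cells that were compared overlapped between genotypes. Il23r, a receptor chain for interleukin 23, was at 1.66, 0.950 and 1.29 in wild type and 2.37, 0.917 and 2.09 CPM in knockout. Blk, a kinase, was at 0.222 to 2.24 in wild type and 0 to 0.868 CPM in knockout, and 5830411N06Rik at 0 to 2.92 and 0.518 to 2.09 CPM. None of these 3 genes was called, while Sox13, Il17a, Cd163l1 and Zbtb16 were not analysed here. The CD8 gene Cd8b1 was at 10.3 to 16.0 in wild type and 10.7 to 22.1 CPM in knockout, and genes of natural killer and cytotoxic cells at 126 to 306 CPM and 138 to 164 CPM. The part of other cells in the Trdc difference was not tested.

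Beta V usage was uneven and alike in outline in all 6 libraries. A segment's usage is given here as its percent of the counts of its class in a library. Mean usage ran from 0.0172% for the pseudogene Trbv8 to 11.8% for Trbv16, with a median of 3.05%. The 5 leading segments were Trbv16, Trbv3, Trbv13-3, Trbv19 and Trbv13-2, with mean shares of 11.8%, 11.0%, 10.2%, 9.03% and 8.23%. Which of them led differed between libraries: Trbv19 in wild type 1 at 11.5%, Trbv3 in wild type 2 at 10.9% and in knockout 3 at 14.5%, Trbv16 in wild type 3 at 13.1% and in knockout 1 at 14.4%, and Trbv13-3 in knockout 2 at 12.2%. Counts per base gave nearly the same order as counts, with a rank correlation of 0.986 over the 25 segments, which share the same libraries.

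**Figure D2:**
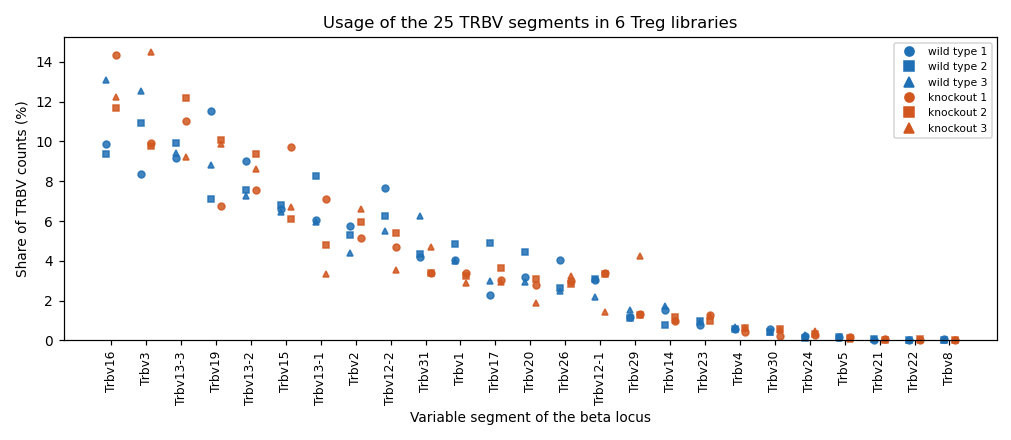
Share of TRBV counts in percent for the 25 beta V segments (x axis, by mean share), with 1 point for each of 3 wild-type (blue) and 3 knockout (orange) libraries. The 5 leading segments lay between 6.76% and 14.5% with the genotypes interleaved, and Trbv29 stood at 4.23% in knockout library 3 against 1.14% to 1.52% elsewhere.

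By the sum of the 5 largest segments, the top of the beta repertoire took a larger share in knockout, while other measures of evenness were mixed. The 5 largest TRBV segments of each library summed to 48.0%, 46.0% and 51.1% in wild type and 52.6%, 53.1% and 54.5% in knockout, without overlap (53.4 ± 0.970% against 48.4 ± 2.55%, exact permutation p = 0.1). The effective number of segments, the number of equally used segments that would give the same inverse Simpson index, was 13.9, 14.3 and 13.1 in wild type and 12.7, 13.1 and 12.4 in knockout. These values overlapped narrowly, with p = 0.2 (exact permutation test). Based on Shannon entropy it was 15.9 ± 0.246 and 15.3 ± 0.216 without overlap, p = 0.1 (exact permutation test).

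Of the 25 TRBV segments 4 (16.0%) had shares that did not overlap between genotypes. Over all 161 V and J segments of the alpha and beta loci 22 did not overlap (13.7%), 12 higher and 10 lower in knockout, and the smallest Benjamini-Hochberg adjusted p over them was 0.732 (exact permutation tests). The share of Trbv1 was 4.06%, 4.87% and 4.02% in wild type and 3.39%, 3.22% and 2.89% in knockout, with a log2 fold change of -0.39 ± 0.17 and a multiple-test adjusted p of 0.849 (edgeR quasi-likelihood test, Benjamini-Hochberg). The share of Trbv12-2 was 7.67%, 6.23% and 5.50% in wild type and 4.69%, 5.41% and 3.52% in knockout, with a log2 fold change of -0.43 ± 0.19. Without knockout library 3 that of Trbv12-2 was -0.25, and without wild-type library 2 that of Trbv1 was -0.26. Both were lower in every knockout library, though for Trbv12-2 the margin was 0.0893 percentage points. The other 2, Trbv23 and the pseudogene Trbv24, were higher in every knockout library, at 1.16 ± 0.149% against 0.905 ± 0.106% and at 0.346 ± 0.107% against 0.202 ± 0.0591%.

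The TRBJ rows were the most even of the 4 classes. Trbj1-5, Trbj1-4, Trbj2-6, Trbj2-7 and Trbj1-6 led with mean shares of 12.9%, 11.7%, 11.1%, 10.4% and 8.63%, and Trbj2-4 was lowest at 1.19%. The share of Trbj1-5 was 12.3%, 12.9% and 12.3% in wild type and 13.3%, 12.7% and 14.2% in knockout, with overlap. The effective number was 11.1 to 11.3 of 14 segments in wild type and 11.0 to 11.2 in knockout, and 0 of 14 TRBJ shares were free of overlap. The pseudogene Trbj2-6, whose printed sequence lacks the J motif, took 9.12%, 11.7% and 13.1% in wild type and 11.7%, 10.4% and 10.4% in knockout. By mean share it stood behind Trbj1-5 and Trbj1-4 only, and it was the largest in wild-type library 3.

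Alpha J usage ran in runs along the locus. From the 5′ end toward Trac, mean shares climbed over Traj31 (0.380%), Traj30 (1.29%), Traj29 (2.09%) and Traj28 (4.39%) to Traj27 (10.7%), and were 1.05% at Traj26 and 0.283% at Traj25. They climbed again from Traj24 (0.621%) through Traj21 (2.79%), Traj20 (4.48%), Traj19 (5.53%) and Traj18 (5.67%) to Traj17 (10.7%), and were 0.390% at Traj16. A further climb ended at Traj9 (6.96%) and the pseudogene Traj8 (6.31%), followed by 0.478% at Traj7. Over the 50 pairs of neighbouring listed segments the log2 mean shares correlated at r = 0.51, against 0.05 over 70 pairs of TRAV neighbours and 0.43 over 24 pairs of TRBV neighbours. This is a description over segments that share libraries and, as neighbours, may share reads.

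**Figure D3:**
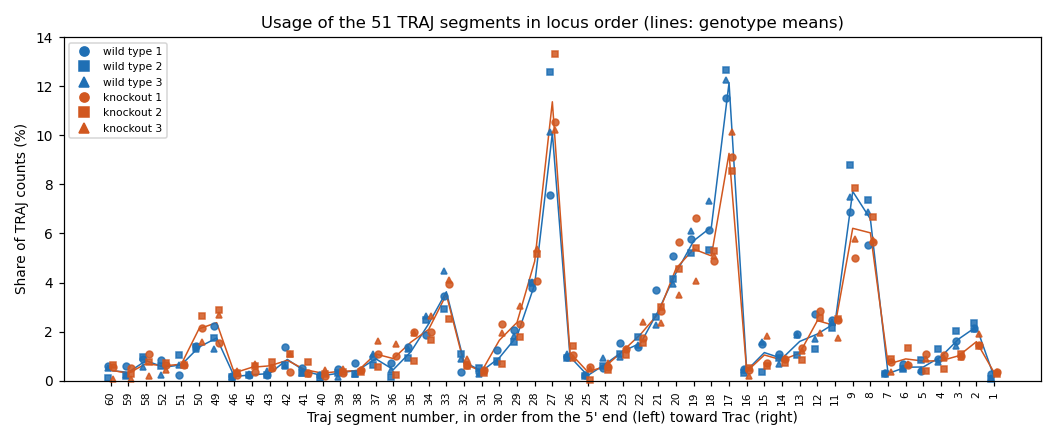
Share of TRAJ counts in percent for the 51 alpha J segments in locus order from the 5′ end to Trac (x axis), with 1 point per library and a line for each genotype mean. Both genotypes show stepwise climbs ending at Traj27, at Traj17 and at Traj9 and Traj8, with Traj17 lower in all 3 knockout libraries.

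Traj17 was the leading alpha J segment of each wild-type library and Traj27 that of each knockout library. The share of Traj17 was 11.5%, 12.7% and 12.3% in wild type and 9.10%, 8.56% and 10.1% in knockout, with no overlap. Its log2 fold change was -0.53 ± 0.23 (SE), with an unadjusted p of 0.0401 and an adjusted p of 0.845 (edgeR quasi-likelihood test, Benjamini-Hochberg). The share of Traj27 was 7.57%, 12.6% and 10.1% in wild type and 10.6%, 13.3% and 10.2% in knockout, with overlap, so only Traj17 of the pair separated the genotypes. Of the 51 TRAJ shares 11 (21.6%) did not overlap, 7 higher and 4 lower in knockout, against 13.7% over all V and J segments, and 6 of these 11 averaged under 50 counts.

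Counts on TRAJ rows lay on average farther from Trac in the knockout libraries. Successive alpha joins use V segments farther upstream and J segments nearer to Trac, so the distance of used J segments is a measure of where along the locus joins lie. Row counts are only a stand-in for used J segments, as 8.46% to 9.72% of TRAJ counts lay on pseudogene rows. The count-weighted mean distance of TRAJ rows to Trac was 23.6, 22.8 and 22.9 kb in wild type and 24.5, 24.5 and 24.7 kb in knockout. The genotypes did not overlap, with means of 23.1 ± 0.450 and 24.5 ± 0.0990 kb, p = 0.1 (exact permutation test). The first 25 of the 51 TRAJ rows from the 5′ end held 26.9%, 23.4% and 24.7% of counts in wild type and 29.5%, 27.3% and 33.4% in knockout, which also did not overlap (exact permutation p = 0.1). The distance of TRAV rows was 803 ± 23.0 kb in wild type and 784 ± 10.0 kb in knockout with overlap, p = 0.3 (exact permutation test). Naive T cell genes, at 1045 to 1332 in wild type and 1548 to 2062 CPM in knockout, were higher in the same knockout libraries, and their part in the J difference was not tested.

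The alpha V segments were spread widest, and no segment dominated. Mean shares ran from 0.0409% for Trav23 to 5.50% for Trav7-4, with a median of 0.998%. Next came Trav14n-3, Trav14d-3-dv8, Trav3-3 and Trav6-7-dv9 at 4.52%, 4.16%, 3.92% and 3.82%. The largest segment was Trav14d-3-dv8 in wild type 1 (9.54%), Trav14n-3 in wild type 2 (6.25%), Trav7-4 in wild type 3 (8.20%), knockout 1 (6.28%) and knockout 3 (5.80%), and Trav6n-6 in knockout 2 (6.90%). Grouped into subgroups by the number before the hyphen, Trav14 led with a mean of 16.4% over 5 segments, followed by Trav7 at 15.1% over 8 and Trav6 at 10.4% over 11. The effective number was 31.6, 37.2 and 36.4 segments in wild type and 35.6, 35.3 and 35.5 in knockout, and the groups overlapped.

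Much of the mouse alpha V region exists in repeated copies, marked D and N in the names, and many of these copies are nearly the same. Of 71 listed TRAV segments 26 were at least 95% identical to another annotated segment and 7 at least 99%, against 0 of 25 TRBV segments at 95%. The counts of such rows are uncertain, since reads could be split between copies. Bases 287 to 347 of Trav7-4, the leading alpha V segment, and of its copy Trav7d-4 contain 1 of the 2 bases, in capitals, at which their transcripts of 451 bases differ. The last 70 bases of 3 copies of Trav14-3, which include the 3′ end that joins to J, differ at 5 positions in capitals, and 2 of these copies are among the leading segments. Over whole transcripts these copies are less alike, differing by 33, 82 and 107 bases in pairs, differences in length included. Each is 91.4% to 94.3% identical to its nearest annotated segment, below the 95% line.
Trav7-4 (chr14:53461099-53461738): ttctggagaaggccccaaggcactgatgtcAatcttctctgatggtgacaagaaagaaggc
Trav7d-4 (chr14:52769753-52770392): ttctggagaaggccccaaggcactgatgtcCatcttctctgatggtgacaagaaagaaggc
Trav14-3 (chr14:53763173-53763694): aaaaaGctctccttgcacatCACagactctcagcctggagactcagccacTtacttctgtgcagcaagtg
Trav14d-3-dv8 (chr14:53078452-53079045): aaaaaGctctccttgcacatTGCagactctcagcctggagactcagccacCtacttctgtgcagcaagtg
Trav14n-3 (chr14:53370077-53370575): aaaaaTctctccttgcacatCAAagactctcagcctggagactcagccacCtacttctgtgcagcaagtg

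The copies Trav7-4 and Trav7d-4 were counted at different levels, with the division of reads between them uncertain. Trav7-4 took 3.54%, 5.38% and 8.20% of TRAV counts in wild type and 6.28%, 3.80% and 5.80% in knockout. Trav7d-4 took 1.82%, 1.87% and 1.03% and then 1.16%, 0.928% and 1.56%. In wild-type library 3 the first was at its highest and the second near its lowest. Summed over all rows, D copies took 13.0 ± 3.26% of TRAV counts in wild type and 9.46 ± 1.75% in knockout, and N copies 14.8 ± 1.99% and 16.0 ± 2.02%, both with overlap.

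Shares of 7 of the 71 TRAV segments (9.86%) did not overlap between genotypes, 3 higher and 4 lower in knockout. This is below the 13.7% over all V and J segments and near the 10.3% of all genes by CPM, so the values of these 7 are given as a description. Trav9-2 took 1.91%, 2.07% and 3.08% in wild type and 4.07%, 3.23% and 3.24% in knockout, and Trav12-2 took 2.97% to 3.58% and 3.77% to 4.59%. Trav15-1-dv6-1, which can join in alpha or delta chains, had 35, 48 and 2 counts in wild type and 119, 70 and 83 in knockout, a log2 fold change of 1.67 ± 0.87. Its largest departure was the low wild-type library 3, without which the log2 fold change was 1.11. On the lower side, Trav7-5 took 2.32%, 2.76% and 2.35% in wild type and 1.62%, 1.83% and 1.75% in knockout. Its log2 fold change was -0.54 ± 0.23, with an unadjusted p of 0.0400 and an adjusted p of 0.845 (edgeR quasi-likelihood test, Benjamini-Hochberg). Trav6d-5 took 0.645% to 0.789% and 0.307% to 0.457%, and the other 2 were Trav8d-2 and Trav6-3. Trav7-5 and Trav6d-5 are at least 95% identical to another segment, Trav7n-5 and Trav6n-5, so their counts are uncertain.

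Segments used by invariant receptors, which conventional receptors can use too, were compared next. Traj18, the J segment of the invariant receptor of natural killer T (NKT) cells, which recognise lipids on CD1d, took 6.12%, 5.33% and 7.34% of TRAJ counts in wild type and 4.88%, 5.29% and 5.09% in knockout. These did not overlap, although wild type 2 and knockout 2 were 0.0433 percentage points apart. Its log2 fold change was -0.46 ± 0.32 (SE) with an adjusted p of 0.938 (edgeR quasi-likelihood test, Benjamini-Hochberg). Traj18 also stands on the climb to Traj17 described above. Its V partners Trav11 and Trav11d were not analysed here, and the pseudogene copy Trav11n had 10 to 27 counts per library. Trav1, the V segment of MAIT cells, had 183, 101 and 147 counts in wild type and 114, 93 and 73 in knockout, and Traj33 took 3.47%, 2.94% and 4.46% of TRAJ counts and 3.92%, 2.52% and 4.09%, both with overlap. A list of genes compared for NKT and MAIT cells summed to 451 to 550 in wild type and 448 to 500 CPM in knockout. Most of this sum was Slamf6, at 297 to 368 in wild type and 294 to 368 CPM in knockout. Klrb1c was at 0.406 to 6.10 and 2.80 to 6.70 CPM, and Zbtb16 was not analysed here. The sum therefore mainly follows Slamf6 and is no measure of NKT or MAIT content.

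Some V segments were high in a single library. Among 113 V and J segments of all loci that averaged at least 50 counts, 6, all of them V segments, had a share in 1 library at least 3 times the median of the other 5. Trbv29 took 1.19%, 1.14% and 1.52% of TRBV counts in wild type and 1.33%, 1.28% and 4.23% in knockout. Its log2 fold change of 0.86 was carried by knockout library 3, without which it was 0.12. Trav10n was also highest in knockout 3, at 3.13% against 0.563% to 1.61% in the others. Knockout library 2 held the peaks of Trav6n-6, 6.90% against 1.10% to 2.86%, and of Trav8d-1, 1.43% against 0.392% to 0.614%. Trav14d-3-dv8 peaked in wild-type library 1 at 9.54% against 1.96% to 4.77%, and Trav9d-1 in wild-type library 3 at 1.58% against 0.450% to 0.870%. At the same minimum count, 20 of 59 TRAV and 1 of 22 TRBV segments reached 2 times the median of the others in some library, against 0 of 18 TRAJ and 0 of 13 TRBJ segments.

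**Figure D4:**
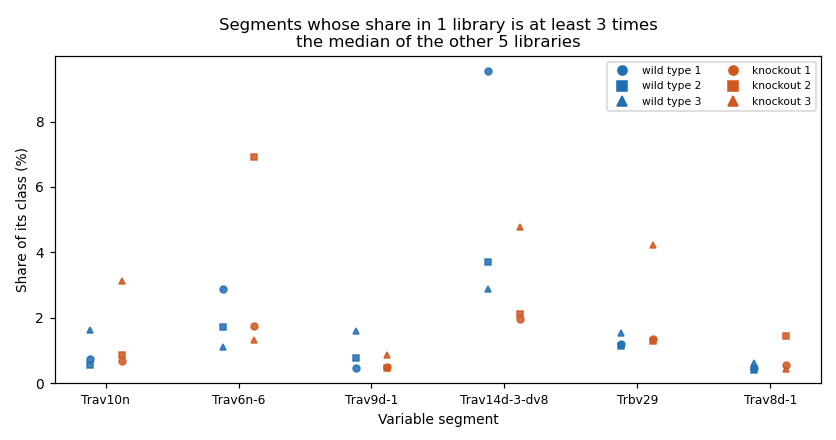
Share of its class in percent for the 6 V segments that were at least 3 times higher in 1 library than the median of the other 5, with 1 point per library. The peaks fell in 4 different libraries, such as 9.54% for Trav14d-3-dv8 in wild-type library 1 and 6.90% for Trav6n-6 in knockout library 2.

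Differences between libraries of 1 genotype were large for V segments and small for J segments. Chi-square per degree of freedom within genotypes, which is 1 where libraries differ by counting noise alone, had a median of 17.7 for TRAV, 44.1 for TRBV, 3.39 for TRAJ and 2.02 for TRBJ, and of 21.4 over all genes tested. It grows with the count, so rows were compared within bands of mean count. Between 100 and 1000 mean counts the median was 31.9 for 46 TRAV segments, 7.34 for 9 TRAJ segments and 3.21 for 11 TRBJ segments, against 19.9 for 4973 genes. Between 1000 and 10000 counts it was 118 for 15 TRBV segments against 36.3 for 4327 genes. Within these bands V segments therefore varied more between libraries of a genotype than other genes, and J segments less, as medians without a test. The J segments had lower counts in their band, with medians of 176 for TRAJ and 255 for TRBJ against 397 for the genes. Lower counts lower the chi-square, by an amount not measured here.

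**Figure D5:**
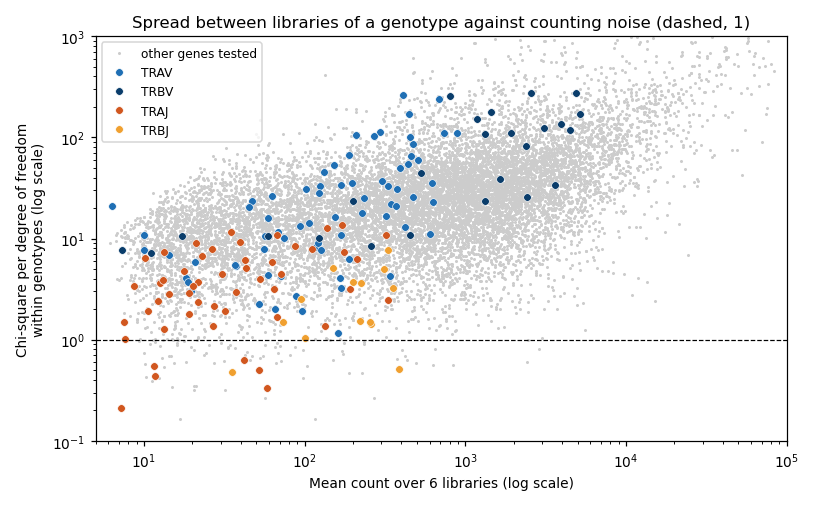
Chi-square per degree of freedom of each gene's counts within genotypes (y axis, log scale) against its mean count (x axis, log scale), for the V and J segments (coloured) and the other genes tested (grey), with counting noise at the dashed line of 1. Between 1000 and 10000 counts the TRBV segments had a median of 118, against 36.3 for all genes tested. The TRBJ segments lie near the line, with a median of 2.02.

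As whole profiles the genotypes stood no farther apart than libraries of 1 genotype, apart from a small excess for TRAJ. The share of counts that would have to move to turn 1 library's profile into another's had a median of 20.1% within genotypes (6 pairs) and 20.6% between them (9 pairs) for TRAV. It was 11.1% and 11.0% for TRBV, 5.29% and 5.30% for TRBJ, and 12.6% and 14.9% for TRAJ. For TRAJ the ranges still overlapped, 10.1% to 16.5% within and 12.3% to 16.1% between. Of 74 summary measures of the receptor rows compared by exact permutation tests, 17 (23.0%), many of them parts of each other, did not overlap between genotypes, and the smallest Benjamini-Hochberg adjusted p was 0.435.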

How the data were processed

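The authors deposited 1 table of 13623 rows holding raw whole-number counts of each gene in each library. The submitters' processing notes name the tools cutadapt, STAR and DESeq2 with build mm10 but no versions. How reads were counted, on which annotation and strand, and what became of reads that match several genes is not given in the sources used here. Libraries were made from column-purified RNA with a low-input mRNA kit, per the labels' protocols. Further columns, per the file headers, are the authors' normalized signal averaged over libraries, log2 fold changes and their errors, a Wald score, and p-values, of which only the p-values, the adjusted p-values and the mean are used. The smallest deposited mean is 5.96, so segments below that level are not analysed here. In 18 rows the gene name had become a date, and these rows (0.294% to 0.308% of counts) were left out.

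The members and lists were chosen with earlier results of these data known, and 1 gene of the marker lists is not reported here. All 13605 genes were filtered with filterByExpr, scaled by TMM and tested with edgeR 4.0.16 in R 4.3.3 (quasi-likelihood F test, genotype only, all 6 libraries, Benjamini-Hochberg over 12789 genes). The SE of a log2 fold change is its size over the square root of F. Segment shares are percent of the counts of a class in a library, and shares and sums were compared by exact two-sided permutation of the libraries (Python 3.11.15, SciPy 1.17.1). Named genes were all constant, gamma and delta rows, the 5 largest segments of each class, the 5 smallest p per direction, segments of invariant receptors, and segments averaging at least 50 counts at least 3 times higher in 1 library. Alternatives were DESeq2 1.42.0, limma-voom (limma 3.58.1), other scaling, no filter, a replicate block and leaving out each library. On simulated data of this comparison, 12414 genes, the edgeR test called 55% of 2-fold and 90% of 4-fold changes with 14 false calls. These rates are for genes at large and were not tested for receptor rows alone. Within the count bands given above V segments varied more between libraries than other genes, and J segments less, so the rates may differ for them. Identity between segments was measured with edlib 1.3.9.post1 over GENCODE M21 transcripts. Receptor rows held 177764 to 203618 counts per library, so counting error is small for the constant regions and large for the gamma rows.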

Additional observations from a re-analysis of the deposited data

How the results depend on the processing

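The count of receptor genes called stayed at 0 under all 12 alternatives, with 2 to 10 at an unadjusted p under 0.05 and smallest adjusted p-values from 0.115 to 1.00 (edgeR, limma-voom or DESeq2, Benjamini-Hochberg). Of 63 listed genes of the receptor complex and marker lists 0 were called by edgeR, 3 by DESeq2 (Igfbp4, Ccr7 and Lrrc32) and 7 by DESeq2 with the replicate block, the last chosen after seeing the data. Over all genes edgeR called 0, DESeq2 46, edgeR with the block 16 and DESeq2 with the block 244.

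The labels do not state that same-numbered libraries are pairs. Correlations of same-numbered deviations were low, at 0.108, 0.0823 and 0.0239, yet 6 of 6 libraries correlated best with their own number. These values do not settle whether the numbers mark pairs, which was not tested. For Trbv12-2 the authors' adjusted p of 0.112 lay near the 0.115 of DESeq2 with the block, against 0.629 without it. With the replicate block the smallest adjusted p of a receptor gene was 0.344 in edgeR, and 46 of 161 segments moved 1 way in all 3 pairs. That is a looser criterion than the absence of overlap, which 22 met, so these segment counts alone do not show an effect of the block. Leaving out 1 library, 33 to 41 shares did not overlap, as separation is easier with 2 against 3. The log2 fold change of Trdv2-2, 0.0090, was -0.049 with the block in edgeR, -0.0042 with limma-voom and -0.053 in DESeq2 with the block.

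Of 42 named genes 28 kept their direction throughout. Without 1 library at a time the log2 fold changes that crossed 0 ranged from -0.074 to 0.073 for Trac, -0.23 to 0.29 for Trdv2-2, -0.38 to 0.20 for Trav7-4, -0.0054 to 0.36 for Trav3-3, -0.24 to 0.12 for Trav6-7-dv9, -0.0998 to 0.22 for Traj27, -0.061 to 0.30 for Trbv3, -0.11 to 0.21 for Trbv19, -0.096 to 0.18 for Trbj2-6, -0.040 to 0.21 for Trbj2-7, -0.036 to 0.098 for Trbj1-6, -0.32 to 1.16 for Trav10n, -0.31 to 1.19 for Trav6n-6 and -0.0050 to 1.01 for Trav8d-1. The log2 differences of locus sums ranged from -0.082 to 0.057 for alpha, from -0.050 to 0.062 for beta and from -0.26 to 1.69 for gamma. The difference in effective number of TRAV segments ranged from -1.34 to 1.49, that in the share of the first TRBJ cluster from -0.012 to 1.64 points and that in the ratio of alpha to beta from -0.054 to 0.017. The cause of these reversals was not tested. The Trbc1 share, the TRAJ distance (1.29 to 1.71 kb), the share of the 5 largest TRBV segments (3.86 to 6.38 points), the gamma and delta share (0.0338 to 0.0745 points) and Trdc (1.54 to 2.30 CPM) kept their direction without each library.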

Other observations

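Trav10 and Trav6n-6, which belong to different subgroups, had alike profiles over the 6 libraries, a comparison made after their values were seen. Trav10 took 3.55%, 2.73% and 1.69% of TRAV counts in wild type and 1.96%, 5.66% and 1.37% in knockout, and Trav6n-6 took 2.86%, 1.72% and 1.10% and then 1.74%, 6.90% and 1.32%. Both were highest in knockout library 2, next in wild-type library 1 and lowest in knockout library 3 or wild-type library 3. Pseudogene rows took 8.46% to 9.72% of TRAJ counts in every library, most of it on Traj8, whose neighbour Traj9 is among the leading segments. Among TRAV counts pseudogene rows took 0.795 ± 0.0767% in wild type and 1.20 ± 0.115% in knockout without overlap, with p = 0.1 (exact two-sided permutation test, the smallest p possible). Grouped by subgroup, the effective number of TRAV subgroups was 8.71, 10.0 and 10.7 in wild type and 10.9, 11.6 and 10.9 in knockout, also without overlap (exact permutation p = 0.1). The Trav7 subgroup was lower in every knockout library, at 12.9% to 14.3% against 14.4% to 19.0%. The margin was narrow, at 14.31% in knockout library 1 and 14.35% in wild-type library 1. The Trav15 subgroup was higher in every knockout library, at 0.586% to 0.809% against 0.144% to 0.424%, and all other TRAV subgroups overlapped.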
